A study of Rattus norvegicus with 12 samples.

Results

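The 10 genes described here lie along 1 stretch of rat chromosome 3, in the order Alkbh3, Hsd17b12, Ttc17, Api5, Lrrc4c, Traf6, Trim44, Fjx1, Fbxo3 and Cd59b. They were taken by symbol from the probe sets to which the platform annotation gives exactly 1 gene, and each was read by 1 probe set. They are 10 of 14506 genes on the array, chosen because several of them differed between the genotypes, so their differences between genotypes are given as a description and not as a test. RNA of whole ganglionic eminences, medial and lateral together, was hybridised to Affymetrix Rat Gene ST arrays; the rat embryos were at embryonic day 14. The eminences are the ventral forebrain swellings from which the striatum arises. The 12 embryos comprised 6 homozygous for BACHD and 6 of wild type. BACHD is a bacterial artificial chromosome with the entire human mutant huntingtin gene, here of 96 CAG repeats, under its own regulatory sequence. Each array held RNA of 1 embryo. The embryos came from 3 dams dissected on 1 day, and the labels used here give neither the dam nor the sex of an embryo, so neither could be set against genotype. The place where the transgene sits was not analysed here.

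Genes that lie close together on a chromosome are usually inherited together. In a transgenic line the DNA on both sides of the inserted transgene is passed on with it, and embryos that share a stretch of chromosome also share its regulatory variants. The question put to these genes was whether neighbours differed together between genotypes and from embryo to embryo; inheritance itself was not tested. Their products have unrelated tasks. Alkbh3 removes alkyl groups from single-stranded DNA and RNA, Fbxo3 selects substrates for an SCF ubiquitin ligase, and Traf6 is a ubiquitin ligase of Toll-like and interleukin receptor signalling. Lrrc4c is a postsynaptic adhesion protein that binds netrin-G. Fjx1 is the counterpart of four-jointed, known in Drosophila as a Golgi kinase for the cadherins Fat and Dachsous.

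The sequences just before 3 of the genes are shown. They put Alkbh3, the gene with the highest positive difference, beside a pair of direct neighbours, Fjx1 and Trim44. In Fjx1 the values of the 2 genotypes did not overlap, and in Trim44 they did. The sequences are the 250 bases before the annotated start, 5′ to 3′ on the gene's strand, from the RefSeq table of GRCr8. The build of the array is not given in the sources used here, and 7 of the 10 genes had an entry. Capitals mark the GC box GGGCGG, the CCAAT box CCAAT, the TATA box TATAAA and the E-box CACGTG on either strand.
Alkbh3: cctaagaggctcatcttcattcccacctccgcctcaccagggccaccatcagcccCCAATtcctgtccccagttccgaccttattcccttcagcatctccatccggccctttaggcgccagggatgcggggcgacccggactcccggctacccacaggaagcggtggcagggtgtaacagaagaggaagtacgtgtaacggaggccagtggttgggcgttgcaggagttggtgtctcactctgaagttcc
Trim44: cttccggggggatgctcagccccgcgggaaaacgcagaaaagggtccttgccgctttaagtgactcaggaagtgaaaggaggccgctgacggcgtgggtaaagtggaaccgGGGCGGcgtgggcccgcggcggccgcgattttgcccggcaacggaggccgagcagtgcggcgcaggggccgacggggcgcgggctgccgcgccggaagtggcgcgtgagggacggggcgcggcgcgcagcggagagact
Fjx1: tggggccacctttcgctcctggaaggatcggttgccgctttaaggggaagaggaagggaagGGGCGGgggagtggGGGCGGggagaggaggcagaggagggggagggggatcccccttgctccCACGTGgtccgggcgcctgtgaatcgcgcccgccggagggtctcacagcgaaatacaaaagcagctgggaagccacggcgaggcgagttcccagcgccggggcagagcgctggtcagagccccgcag
In order these are chr3:100427282-100427531, chr3:109183822-109184071 and chr3:109231325-109231574, all on the minus strand. The RefSeq gene Alkbh3 extends into its window, and the other 2 do not. The window of Trim44 held 36 CpG dinucleotides and 1 GC box. That of Fjx1 held 20 CpG, 2 GC boxes and 1 E-box, and that of Alkbh3 held 12 CpG and 1 CCAAT box. Over all 33469 such windows the median was 5 CpG. A GC box occurred in 30.5% of them, a CCAAT box in 34.0%, a TATA box in 12.9% and an E-box in 5.59%, and none of the 3 windows held TATAAA. A match is a run of letters and not a shown binding site.

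The tissue and labels were checked first. Htt, read by 1 rat probe set, stood at 10.16, 10.25 and 10.40 log2 intensity in homozygous embryos (lowest, median, highest), against 9.77, 10.003 and 10.07 in wild type. All 10 measured subpallial markers lay above the mean array median of 7.71. So did 8 of 9 pallial, 8 of 8 endothelial and 4 of 4 erythroid markers, so this level does not set the tissue apart. For microglia it was 4 of 8, for meninges 3 of 7 and for choroid plexus and roof plate 1 of 9. Between genotypes, 8 of 9 pallial markers were lower in homozygous embryos, with list means of 9.21 to 9.38, against 9.22 to 9.64 in wild type. All 9 choroid plexus and roof plate markers were higher in homozygous embryos, with list means of 6.71 to 6.99, against 6.70 to 6.81 in wild type. These are low values, and 64.8% of all probe sets were higher in homozygous embryos. Of the erythroid markers 3 of 4 were lower in homozygous embryos (8.97 to 9.46, against 9.07 to 9.76). For endothelium (8.60 to 8.67, against 8.55 to 8.71), microglia (7.42 to 7.57, against 7.41 to 7.63) and meninges (7.47 to 7.60, against 7.41 to 7.52) the ranges overlapped as well. No marker of any of these lists passed the adjusted threshold of 0.05 in limma, and their part in the differences below was not tested. In whole tissue, fewer cells of a type and less RNA per cell cannot be told apart. Wild type 1 and wild type 2 resembled each other most. Their deviations from the group mean across all probe sets correlated with r of 0.24, the highest of any pair of arrays of 1 genotype, and in 40.6% of all 14506 genes both were the 2 highest or the 2 lowest of the wild-type embryos. Differences that change by over 1.5 times, or turn, when both are left out are given with and without them.

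Of the 10 genes, Alkbh3 was higher in homozygous embryos and Lrrc4c, Fjx1, Fbxo3 and Cd59b were lower, each with an adjusted p under 0.05 over all probe sets in limma. Over all 29214 probe sets 0.424% passed in this way, 0.226% higher and 0.199% lower. In the same 5 genes the groups did not overlap, where 1.86% of probe sets had groups that did not overlap. Nothing is read from these counts, since the genes were picked on this contrast. The other 5, Hsd17b12, Ttc17, Api5, Traf6 and Trim44, did not pass. Over the 10 genes the median difference was -0.05 log2 (3 higher, 7 lower), and over all probe sets it was 0.03. The passing gene nearest the threshold was Cd59b (adjusted p = 0.0463 in limma), and the nearest one outside it in the stretch was Apip (adjusted p = 0.0891).

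**Figure D1:**
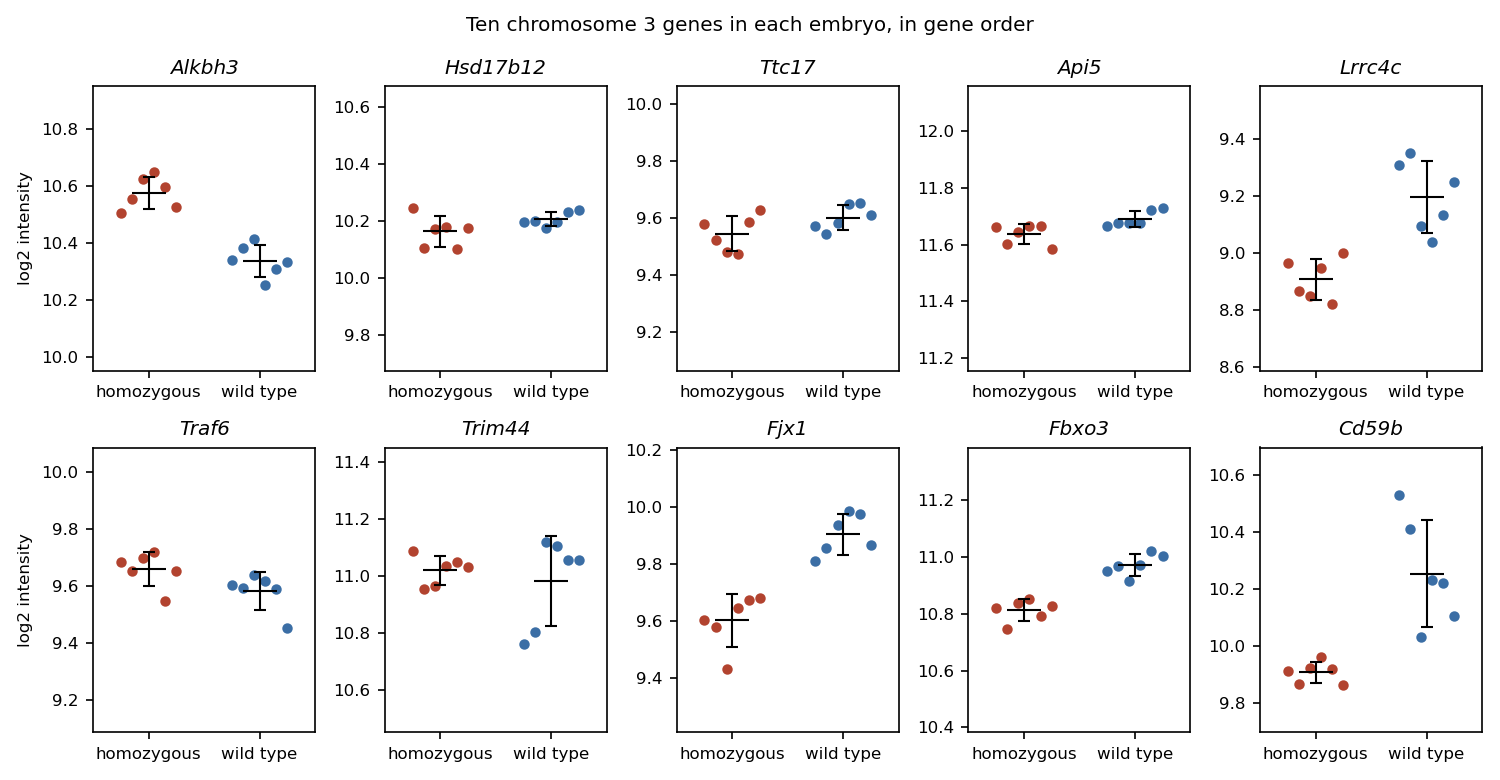
Log2 intensity of the 10 genes in each embryo, homozygous BACHD left and wild type right, in gene order along the chromosome; points are embryos in order of replicate number, bars are the mean ± SD (n = 6 each), and every panel spans 1 log2 unit. Alkbh3, Lrrc4c, Fjx1, Fbxo3 and Cd59b show groups that do not overlap, and wild type 1 and 2 stand low in Trim44 and high in Cd59b.

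Alkbh3, at 1 end of the stretch, had log2 intensities of 10.51, 10.57 and 10.65 in homozygous embryos (lowest, median, highest), against 10.25, 10.34 and 10.41 in wild type. Every homozygous embryo lay above every wild-type embryo, with a gap of 0.094 between the groups. The mean difference was 0.24 ± 0.034 log2 (SE, n = 6 per group), which is 18.0% higher. The spread within a group was alike, with SDs of 0.0562 in homozygous and 0.0563 in wild-type embryos. Of the 5 passing genes it alone had a positive difference.

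The next 3 genes in the row did not share this difference. Hsd17b12, a ketoacyl-CoA reductase of very long chain fatty acid synthesis, lies directly beside Alkbh3 with no protein-coding gene between. It stood at 10.10, 10.17 and 10.25 in homozygous embryos, against 10.18, 10.20 and 10.24 in wild type, and the groups overlapped. Its difference of -0.04 had a 95% confidence interval of -0.11 to 0.02. Ttc17, a tetratricopeptide repeat protein, stood at 9.47, 9.55 and 9.63 against 9.54, 9.60 and 9.65 in wild type, with a difference of -0.06 (-0.13 to 0.02). The interval of Alkbh3 was 0.17 to 0.31. The genes were picked on this contrast, so the intervals are a description. Api5, an inhibitor of apoptosis, stood at 11.58, 11.65 and 11.67 in homozygous embryos, against 11.66, 11.68 and 11.73 in wild type. Its groups overlapped narrowly, since the highest homozygous value, 11.6658, lay just above the lowest wild-type value, 11.6638. Its difference of -0.05 had an interval of -0.10 to -0.0038. With arrays centred on their medians the 3 differences were larger, -0.08 for Hsd17b12, -0.09 for Ttc17 and -0.09 for Api5, and none passed.

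Lrrc4c, the netrin-G ligand, follows Api5 with 1 protein-coding gene between. Its values were 8.82, 8.91 and 8.999 in homozygous embryos, against 9.04, 9.19 and 9.35 in wild type. The groups did not overlap, and the difference was -0.29 ± 0.056 log2, or 18.1% lower in homozygous embryos. In wild type the highest values were those of embryos 2, 1 and 6, at 9.35, 9.31 and 9.25, and the other embryos of that genotype lay at 9.13 or below. Without wild type 1 and 2 the difference was -0.22 ± 0.049.

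Traf6, with 5 protein-coding genes between it and Lrrc4c, had 9.55, 9.67 and 9.72 in homozygous embryos, against 9.45, 9.60 and 9.64 in wild type. The groups overlapped through homozygous 5, and 5 of 6 homozygous embryos lay above all wild-type ones. The difference was 0.08 with an interval of -0.01 to 0.16, and it was 0.05 without wild type 6, the lowest embryo, and 0.04 with arrays centred. Trim44, a tripartite motif protein, had 10.96, 11.03 and 11.09 in homozygous embryos, against 10.76, 11.06 and 11.12 in wild type. Here wild type 1 and 2, at 10.76 and 10.80, lay below every other embryo, while the remaining wild-type embryos lay between 11.06 and 11.12. The difference was 0.04 (-0.09 to 0.17), and without those 2 embryos it was -0.06 ± 0.029, so its direction rested on them.

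Fjx1 is the direct neighbour of Trim44. It had 9.43, 9.62 and 9.68 in homozygous embryos, against 9.81, 9.90 and 9.98 in wild type. All homozygous values lay below all wild-type ones with a gap of 0.127, the widest of the 10 genes. The difference was -0.30 ± 0.046 log2, or 18.9% lower, and -0.34 ± 0.048 without wild type 1 and 2. Its interval was -0.40 to -0.20, and that of Trim44 was -0.09 to 0.17. Without wild type 1 and 2 the difference of Trim44 was also negative, -0.06 ± 0.029. The intervals are a description, since the contrast is that used to pick Fjx1. Homozygous 3 had the lowest value, 9.43, and the next was 9.58.

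The last 2 genes are direct neighbours and were both lower. Fbxo3, the F-box protein, had 10.75, 10.82 and 10.85 in homozygous embryos, against 10.92, 10.97 and 11.02 in wild type. Its difference of -0.16 ± 0.027 log2 (10.4% lower) was the smallest of the 5, and its SD was 0.0379 in homozygous and 0.0377 in wild-type embryos. Cd59b, a membrane-anchored inhibitor of the complement attack complex, had 9.86, 9.92 and 9.96 in homozygous embryos, against 10.03, 10.23 and 10.53 in wild type. Its difference of -0.35 ± 0.069 log2 (21.4% lower) was the largest in size. The embryos of the 2 genotypes were unequally spread, with an SD of 0.0377 in homozygous and 0.187 in wild-type embryos. Wild type 1 and 2 were highest, at 10.53 and 10.41, and without them the difference was -0.24 ± 0.040.

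The chromosome was then read gene by gene. Between Alkbh3 and Cd59b, RefSeq lists 32 protein-coding genes, ends included, and 24 genes of this span were measured. With 10 measured genes beyond each end, 34 genes other than the 10 were available. None of the 34 passed in limma, against 0.469% of all genes by their brightest probe set, and 6 had an unadjusted p under 0.05. These 6 were unevenly placed: 5 of the 14 genes within the span (35.7%) and 1 of the 20 beyond its ends (5%), against 15.1% of all genes. The differences of the span's 14 other genes had both signs, 5 positive and 9 negative. Along the whole row 25 of 43 adjacent pairs (58.1%) had differences of the same sign, against 54.9% of 14459 adjacent pairs over the genome. The contrast is that by which the 10 genes were picked, so these shares are a description.

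**Figure D2:**
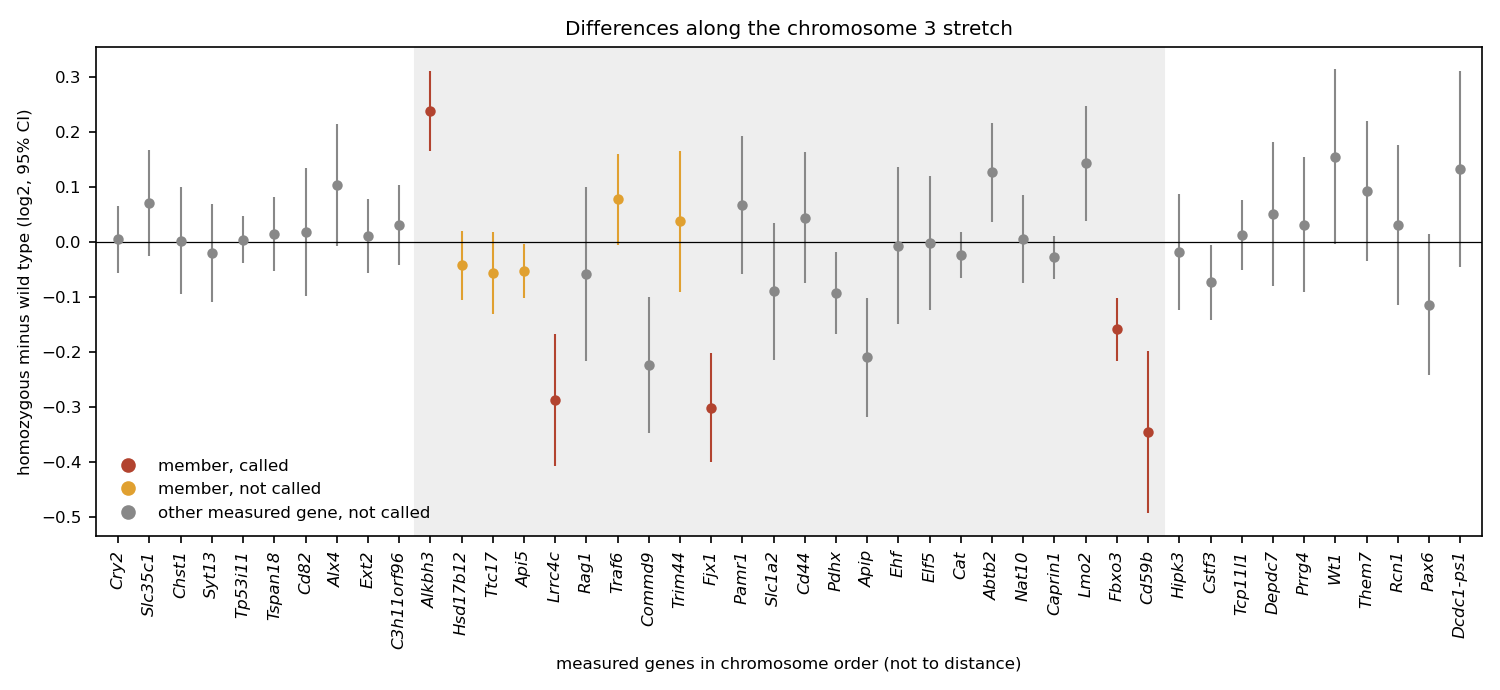
Difference in log2 intensity, homozygous BACHD minus wild type, with its 95% confidence interval from limma, for 44 measured genes in chromosome order; the shaded span runs from Alkbh3 to Cd59b. Genes with differences near -0.3 stand beside genes near 0, and the 1 passing positive difference is at Alkbh3.

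The 6 genes with the smallest p among these others were Apip, Commd9, Abtb2, Lmo2, Pdhx and Cstf3. Commd9, a COMM domain protein of endosomal sorting, lies between Traf6 and Trim44. It stood at 10.08, 10.11 and 10.15 in homozygous embryos, against 10.16, 10.30 and 10.54 in wild type. The groups did not overlap, by a margin of 0.0066, where 2.2% of genes had groups that did not overlap, and its difference was -0.22 ± 0.058 (adjusted p = 0.111 in limma). Wild type 1 and 2 were its highest, at 10.54 and 10.51, and leaving both out brought the difference to -0.13 ± 0.033. Apip, an enzyme of methionine salvage, stood at 9.09, 9.19 and 9.23 against 9.21, 9.40 and 9.53 in wild type, with a difference of -0.21 ± 0.051. Pdhx, of the pyruvate dehydrogenase complex, differed by -0.09 ± 0.035, and the cleavage stimulation factor gene Cstf3, beyond the end, by -0.07 ± 0.032. In Apip, Pdhx and Cstf3, too, these 2 embryos were the highest of the wild type. Leaving both out gave -0.15 for Apip, -0.06 for Pdhx and -0.05 for Cstf3. Abtb2 and the LIM-only gene Lmo2 differed the other way, by 0.13 ± 0.042 and 0.14 ± 0.049.

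On the whole of chromosome 3, 11 of 1252 measured genes passed in limma (0.879%). Without the 10 genes it was 6 of 1242 (0.483%). The nearest passing gene before the stretch was Dusp19, with 271 measured genes between, and the nearest after it was Eif3j, with 130 between.

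Covariation among embryos of the same genotype was not used to choose the genes, and it was tested. Each genotype's mean was subtracted, and Pearson's r over the 12 embryos was set against every order of the values within each genotype (exact permutation, 2-sided, adjusted over 45 pairs). No pair passed. The lowest adjusted p of this exact permutation test was 0.161, and 6 pairs had an unadjusted p under 0.05. The 45 values of r ran from -0.84 to 0.72. Their median was 0.03, against 0.03 over all pairs of genes. For the 9 successive pairs, genes that follow each other in this set, the median was -0.05. It was 0.09 over 14459 pairs of neighbouring genes of the genome. Some of the successive pairs have other measured genes between them. For the 20 pairs on the same side of the gap between Lrrc4c and Traf6 the median was -0.01, and for the 25 pairs across it 0.03. That gap holds 5 protein-coding genes. The gap between Fjx1 and Fbxo3 holds 12 and was not used for this split. These medians moved with the processing. With arrays centred on their medians, r had a median of 0.10 over the 45 pairs, 0.08 on the same side and 0.17 across. For the 9 successive pairs it was then 0.16, against 0.08 for neighbouring genes over the genome and 0.007 over all pairs of genes.

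**Figure D3:**
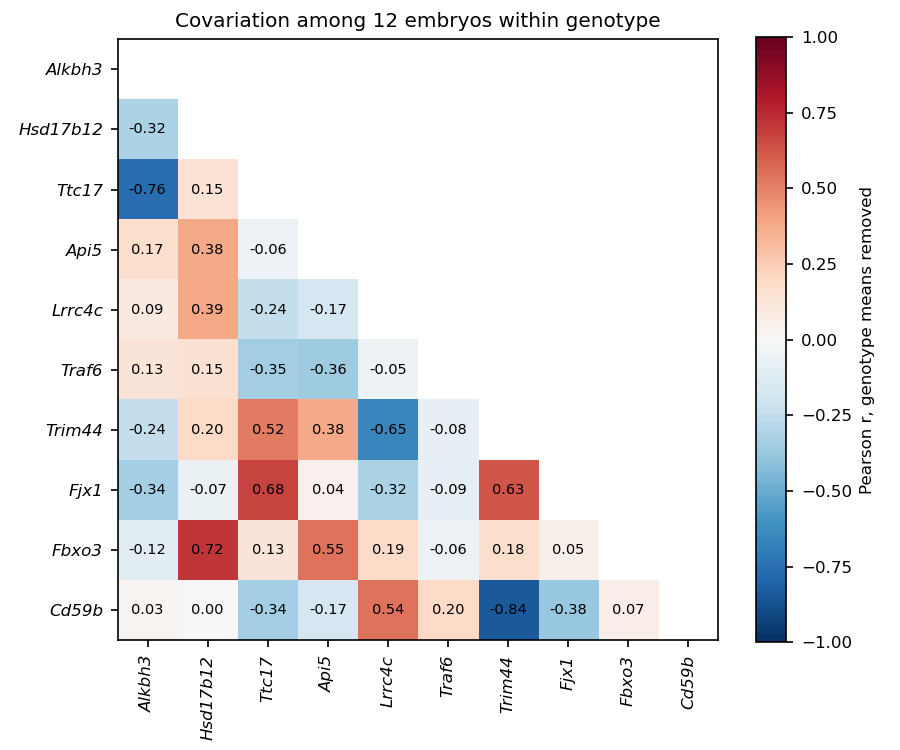
Pearson's r for each pair of the 10 genes over 12 embryos after subtracting genotype means, with genes in chromosome order on both axes. Genes that follow each other among the 10 lie along the diagonal edge, some of them with other genes between on the chromosome. Values there run from negative to positive. The lowest r is -0.84 for Trim44 and Cd59b and the highest 0.72 for Hsd17b12 and Fbxo3.

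Among Alkbh3, Fjx1 and Fbxo3, the 3 genes with the smallest p, no pair passed. Alkbh3 and Fjx1 had r = -0.34 and rho = -0.40 over 12 embryos (exact permutation p = 0.308 and 0.236, adjusted p = 0.776 for r). The r was -0.28 in homozygous embryos and -0.43 in wild type, and -0.37 without wild type 4 and homozygous 4, the embryos farthest from the median of Alkbh3. Alkbh3 and Fbxo3 had r = -0.12 and rho = -0.11 (exact permutation p = 0.727 and 0.763, adjusted p = 0.953 for r), and r = -0.41 without the same embryos. Fjx1 and Fbxo3 had r = 0.05 and rho = 0.23 (exact permutation p = 0.887 and 0.517, adjusted p = 0.953 for r), and r = 0.34 without wild type 4 and homozygous 3. With 12 embryos, weak covariation could not be told from none.

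Among pairs with an unadjusted p under 0.05, Hsd17b12 and Fbxo3 had r = 0.72 and rho = 0.71 (exact permutation p = 0.00981 and 0.0202, adjusted p = 0.161 for r). The r was 0.68 in homozygous and 0.94 in wild-type embryos, and 0.50 without homozygous 2 and 5 (exact permutation p = 0.110). Alkbh3 and Ttc17 ran against each other, with r = -0.76 and rho = -0.74 (exact permutation p = 0.00881 and 0.0143, adjusted p = 0.161 for r). Without wild type 4 and homozygous 4 their r was -0.66 (exact permutation p = 0.0640). With arrays centred on their medians these pairs passed, at r = 0.82 (adjusted p = 0.000434, exact permutation) for Hsd17b12 and Fbxo3 and r = -0.73 (adjusted p = 0.0128, exact permutation) for Alkbh3 and Ttc17. Trim44 and its neighbour Fjx1 had r = 0.63 and rho = 0.63 (exact permutation p = 0.0107 and 0.0482, adjusted p = 0.161 for r). Without wild type 1 and 2 the r of Trim44 and Fjx1 was 0.57 (exact permutation p = 0.131).

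The lowest r, that of Trim44 and Cd59b, rested on 2 embryos. It was -0.84 over 12 embryos with rho = -0.29 (exact permutation p = 0.0240 and 0.409, adjusted p = 0.216 for r). Without wild type 1 and 2, the embryos farthest from the median of Trim44, r was -0.01 (exact permutation p = 0.968). In the span from Alkbh3 to Cd59b, these 2 embryos were the highest wild-type ones in 7 of 24 genes, among them Cd59b, Lrrc4c, Commd9, Apip, Pdhx and Slc1a2. They were the lowest in 5, namely Ttc17, Api5, Trim44, Fjx1 and Caprin1. Together this is 50% of the span's genes, against 40% of the 20 genes beyond its ends and 40.6% of all genes. Alkbh3, at 10.34 and 10.38, and Fbxo3, at 10.95 and 10.97, lay among the other wild-type values in them. The same embryos had pallial list means of 9.59 and 9.46, within the 9.22 to 9.64 of the other wild-type embryos. Their erythroid list means of 9.460 and 9.764 were the highest of the 12 embryos, with homozygous 4 close behind at 9.455. The part of these in the pattern was not tested.

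**Figure D4:**
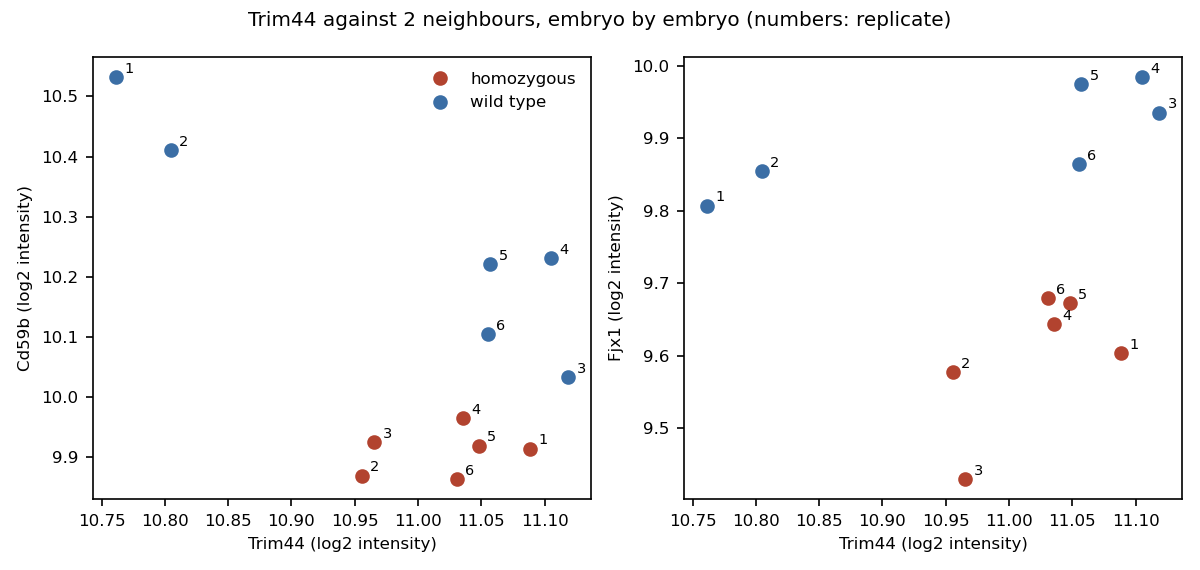
Log2 intensity of Cd59b (left) and Fjx1 (right) against that of Trim44 in each embryo, numbered by replicate, homozygous BACHD in red and wild type in blue. Wild type 1 and 2 sit apart at Trim44 values of 10.76 and 10.80 with the highest Cd59b. In the right panel every homozygous embryo lies below every wild-type embryo in Fjx1. The homozygous embryos cover Trim44 values of 10.96 to 11.09 only.

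Relatives and partners of the 10 genes elsewhere in the genome were tested on their own. They were listed by family and pathway, with earlier results of these data known. Of 93 listed genes 72 were measured. None passed in limma, against 0.469% of all genes by their brightest probe set. At so low a share, nothing is read from the lack of calls among 72 genes. An unadjusted p under 0.05 in limma was found for 6 of the 72 (8.33%), against 15.1% of all genes. Their median difference was 0.01. None passed among 9 AlkB dioxygenases and members of the ASCC complex, the helicase complex that works with Alkbh3, with Ascc1 at -0.13 ± 0.050 and Alkbh1 at 0.01 ± 0.033. None passed among 12 genes of Fat, Dachsous and planar polarity, the pathway of Fjx1 in Drosophila, with Vangl2 at 0.06 ± 0.030 and Fzd3 at 0.07 ± 0.042. The 15 genes of SCF ligases and other F-box proteins had none, with Fbxo42 at 0.10 ± 0.028 and the adaptor Skp1 at -0.05 ± 0.025. Leaving out wild type 1 and 2 gave -0.07 for Ascc1, 0.02 for Alkbh1, 0.04 for Vangl2, 0.02 for Fzd3 and -0.03 for Skp1.

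The remaining families were alike in this. None of 5 netrin-G and related adhesion genes passed, with Ptprs at 0.06 ± 0.020 and Ntng2 at -0.06 ± 0.068. None of 7 complement regulators and small membrane-anchored proteins passed, with Ly6h at -0.26 ± 0.102 and Cr1l at -0.09 ± 0.080. None of 13 genes of Traf6 signalling passed, with Ikbkb at 0.06 ± 0.038 and Map3k7 at -0.04 ± 0.029. Of 11 genes of fatty acid elongation and its hydroxysteroid dehydrogenase relatives none passed. Elovl5, an elongase of polyunsaturated fatty acids, had groups that did not overlap. This held for 1 of the 72 family genes, where 2.2% of all genes had such groups. The difference of Elovl5 was -0.11 ± 0.026 (adjusted p = 0.0883 in limma). It passed after quantile normalization and when arrays were centred by median. Hsd17b4 stood at -0.13 ± 0.051. Several of these values rested on wild type 1 and 2. Leaving both out gave -0.08 ± 0.038 for Ly6h, -0.03 for Cr1l, -0.01 for Map3k7, -0.06 for Hsd17b4 and 0.0055 for Ntng2, whose direction turned.

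The 5 passing genes of the stretch kept their directions in all 19 other settings, but their calls did not hold evenly. Alkbh3 passed in 12 of 19, Fjx1 in 10, Fbxo3 in 9 and Lrrc4c and Cd59b in 6 each. Leaving out single arrays gave differences of 0.22 to 0.25 for Alkbh3, -0.32 to -0.27 for Fjx1, -0.17 to -0.15 for Fbxo3, -0.32 to -0.26 for Lrrc4c and -0.39 to -0.29 for Cd59b. Where the groups do not overlap, leaving out an array cannot turn a direction. The number of the 10 that passed was 5 with all arrays, and leaving out wild type 1 to 6 in turn it was 3, 3, 5, 1, 0 and 1. Leaving out homozygous 1 to 6 in turn it was 1, 0, 1, 0, 0 and 3. Over all probe sets the calls fell to between 4 and 20 in the 8 cases in which 1 or none of the genes passed, and were 59 to 200 in the others.

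**Figure D5:**
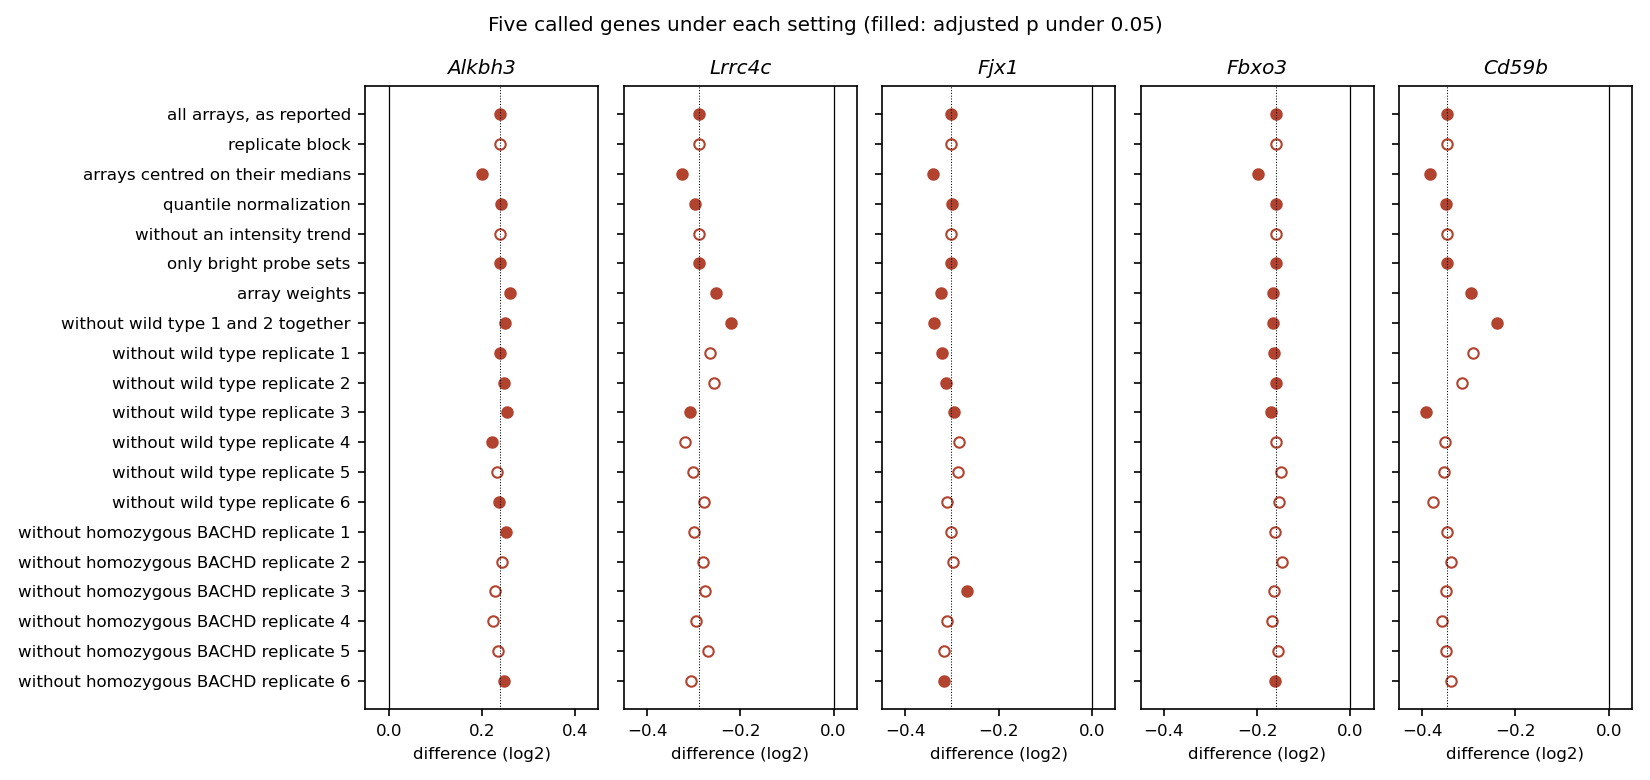
Difference in log2 intensity, homozygous BACHD minus wild type, of the 5 passing genes under each of 20 settings, filled where the adjusted p in limma was under 0.05; the dotted line is the value with all arrays. Differences stay on 1 side of 0 throughout, and Cd59b and Lrrc4c move nearest to 0 without wild type 1 and 2.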

How the data were processed

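Each of 12 embryos, 6 homozygous BACHD and 6 wild type by the titles, gave 1 array. The deposited unit is a log2 intensity for each probe set. Per the submitters' processing notes Partek 6.4 and RMA were used, and no settings are stated there; RMA usually evens out array distributions, which can hide a shift common to all genes, and short probes compress differences. Array medians lay between 7.69 and 7.76 in homozygous embryos and 7.67 and 7.71 in wild type. Arrays have no read depth, and precision is limited by their number (median SE of a difference 0.0576).

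Of 29214 probe sets, 15310 have 1 gene, 323 several and 13581 none. For other genes with several probe sets the brightest stood for the gene. All probe sets were fitted with limma 3.58.1 in R 4.3.3 (lmFit, eBayes with an intensity trend, genotype as the factor, 2-sided, Benjamini-Hochberg over all probe sets at 0.05). Gene order came from the RefSeq table of GRCr8, used for neighbourhood, which placed 14481 of 14506 genes. Correlations used Python 3.11.15 and exact permutation within genotype. Scripts were tested on simulated data.

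The genes, families and marker lists were chosen with earlier results of these data known. Named were the 10 genes, Htt, the 6 other genes of the stretch with the smallest p, 2 per family, and for Alkbh3, Fjx1 and Fbxo3 the 3 most alike genes outside the stretch. Alternatives were a replicate block, centring, quantile normalization, no trend, a filter on dim probe sets, array weights, and leaving out arrays. Figures were drawn with matplotlib 3.10.9.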

Additional observations from a re-analysis of the deposited data

Results flagged for a closer look

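In 62 groups of 6 embryos (31 named genes), a value far from its group was found for 1 gene, Traf6, in both genotypes; chance alone marks about 1 group in 20. In homozygous 5 Traf6 was at 9.55, and the other homozygous embryos lay between 9.65 and 9.72. In wild type 6 it was at 9.45, and the other wild-type embryos lay between 9.59 and 9.64. Traf6 is the gene among the 10 in which 5 of 6 homozygous embryos lay above all wild-type ones.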

How the results depend on the processing

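All 5 passing genes stayed past the threshold with arrays centred on their medians, after quantile normalization, among bright probe sets only, with array weights and without wild type 1 and 2 together. None passed (0 of 10) with a replicate block or without an intensity trend. Over all probe sets the calls were 18 with the replicate block, 302 with centred arrays (35 higher and 267 lower, against 66 and 58 as deposited), 120 after quantile normalization (43 higher, 77 lower), 3 without a trend, 255 among bright probe sets, 414 with array weights and 582 without wild type 1 and 2. Leaving out single arrays gave 4 to 200 calls, 0 to 5 of the 10 genes, 0 to 1 of the other genes of the stretch, 0 family genes and 0 to 1 correlated pairs. The other genes of the stretch had 1 call with array weights (Apip), and 1 without wild type 3 (Commd9). The families had 1 call with centred arrays and 1 after quantile normalization, Elovl5 both times, and the pairs had 2 with centred arrays. Trim44 turned negative with centred arrays (-0.00080), array weights (-0.018) and without wild type 1 and 2 (-0.063), and leaving out single arrays it ran from -0.0074 to 0.0641, below 0 without wild type 1 only. The r of Fjx1 and Fbxo3 was -0.068 without wild type 1 and 2, and leaving out single arrays it ran from -0.10 to 0.30; that of Alkbh3 and Fbxo3 ran from -0.33 to 0.16. The cause of these changes was not tested. Centring moved the median of all probe sets to -0.01, from 0.03 as deposited, and brought Api5 to -0.09, Hsd17b12 to -0.08, Ttc17 to -0.09 and Traf6 to 0.04, none past the threshold. Replicate numbers in the titles did not pair the embryos: 2 of 6 same-numbered pairs had deviations correlated above 0.1, and 1 of 6 homozygous embryos was most like the wild-type embryo of its number. Averaging probe sets could not change a value, since each of the 10 genes has 1.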

Other observations

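Over the 12 embryos, with genotype means removed, the genes outside the stretch whose pattern was most like that of Alkbh3 were Sptssb, Gjb2 and Or2ag19, with r of 0.92, 0.91 and 0.90. For Fjx1 they were Mapkbp1, Vom1r1 and Cdv3 (0.92, 0.91 and 0.91), and for Fbxo3 Triap1, Ythdf2 and Btg3 (0.91, 0.90 and 0.90). These are the highest of 14462 values over 12 embryos that share arrays, and they are a description. None of the 9 differed past the threshold between genotypes in limma; Triap1 stood at -0.13 ± 0.048 and the others between -0.08 and 0.06. The genes most alike to each of the 3 were different ones.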
